A study of Mus musculus with 4 samples.

Results

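The Zfp genes of the mouse are the genes named zinc finger protein and a number. They were taken as every row of the deposited comparison table whose name begins with Zfp followed by a digit, which gave 250 rows. The 3 rows Zfp36, Zfp36l1 and Zfp36l2, which encode RNA-binding proteins with another kind of finger, were left out, so that 247 members of 10716 genes remained. The annotation used here (GENCODE for mouse build NCBIM37) names 363 protein-coding Zfp genes, and the table lists only genes above 1 CPM (reads of a gene scaled to the library total) in at least 2 libraries. Its 247 members are therefore those with a measurable level, not the whole family. Of these, 3 (Zfp28, Zfp69 and Zfp128) were below 1 CPM in both WT-labelled libraries and 0 were below 1 CPM in both KO-labelled libraries.

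RNA was sequenced from erythroid cells of the fetal liver at embryonic day 14.5, sorted by FACS as YFP+ with the R26eYFP reporter, from C57BL/6 mice. The group labelled KO has 2 libraries (replicates 1 and 2) of ADAR knockouts made with Epor-Cre, a recombinase driven by the erythropoietin receptor gene, with the genotype written as Epor-Adar / +. The group labelled WT has 2 libraries (replicates 3 and 8) of wild type genotype. Adar encodes the enzyme that converts adenosine to inosine in double-stranded RNA. The labels name neither the deleted exons nor the alleles that gave the WT cells their YFP. They also do not say whether each library came from a separate embryo. The KO-labelled libraries differed in Y-linked Ddx3y, with 184 CPM in KO replicate 1 and 0.0778 CPM in KO replicate 2. These 2 libraries were therefore not repeats of the same material. For the WT-labelled libraries this is not known. The p-values reflect the variation among 4 libraries, of which that between the WT-labelled ones may be technical.

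Most Zfp proteins carry fingers of the C2H2 type, in which a pair of cysteines and a pair of histidines hold a zinc ion and each finger reads a few bases of DNA. Many also carry a KRAB domain, which binds the co-repressor TRIM28 (KAP1). TRIM28 in turn brings in the histone methyltransferase SETDB1, HP1 proteins and the NuRD complex, and silences transposable elements and imprinted loci. KRAB zinc finger genes multiplied by tandem duplication and lie in runs on a few chromosomes.

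The coding sequences of 239 members could be read from the annotation. They held a median of 9 finger patterns and at most 36, and 84 members held a KRAB pattern in their first 400 residues. The repeat shared by the family is shown from Zfp568, a KRAB member with lower values in the KO-labelled libraries, and Zfp28, a KRAB member with higher values. Each line is 1 finger and its linker, 84 coding bases on build NCBIM37 read 5′ to 3′, with the codons of the zinc-binding cysteines and histidines in capitals. Both genes are on chromosome 7, Zfp568 (ENSMUSG00000074221) from 30768974 to 30813301 and Zfp28 (ENSMUSG00000062861) from 6336080 to 6347755.
Zfp568 finger unit 1: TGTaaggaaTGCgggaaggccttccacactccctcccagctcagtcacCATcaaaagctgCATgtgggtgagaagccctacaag
Zfp568 finger unit 2: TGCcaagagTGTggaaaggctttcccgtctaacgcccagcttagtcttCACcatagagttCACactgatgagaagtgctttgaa
Zfp568 finger unit 3: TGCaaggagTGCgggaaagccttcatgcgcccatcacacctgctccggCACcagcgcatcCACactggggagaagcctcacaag
Zfp28 finger unit 1: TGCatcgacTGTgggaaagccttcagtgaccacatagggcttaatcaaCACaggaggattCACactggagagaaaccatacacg
Zfp28 finger unit 2: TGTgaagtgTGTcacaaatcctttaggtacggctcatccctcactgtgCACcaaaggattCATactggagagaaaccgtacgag
Zfp28 finger unit 3: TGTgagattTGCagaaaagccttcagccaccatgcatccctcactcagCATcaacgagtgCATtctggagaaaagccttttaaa
Within Zfp568 the units shared between 54.8 and 61.9% of their bases, and within Zfp28 between 54.8 and 64.3%. Repeats of this kind can make reads ambiguous, and how reads matching more than 1 gene were counted is not stated. Of 239 members, each read from 1 transcript, 156 shared no stretch of 50 bases with the annotated protein-coding transcripts of other genes. Another 14 shared more than 10% of their 50-base stretches. Pseudogenes, non-coding transcripts and the opposite strand were not compared. Zfp97, at 80.2%, shared the most, so its values are uncertain. None of the 16 members with an unadjusted p below 0.05 was among those 14.

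A second sequence feature lay in the promoters. The motif ACTACA followed, after any 2 bases, by TCC is the core of the element bound by the activator ZFP143 (Staf), itself a member. It was searched on both strands from 250 bases before to 50 bases after each RefSeq gene start on build GRCm38.p6. A match occurred in 41 of the 205 members with a promoter sequence (20.0%), against 5.56% of the 8343 genes of the table with one and 2.27% of 27025 RefSeq genes. Among members with a KRAB pattern the share was 26.4% of 72, and among those without it was 17.5% of 126. In genes of other names with a KRAB pattern and at least 5 finger patterns it was 11.1% of 27. The windows of the 5 matched members with the most counts are shown with that of Zfp28, as 30 bases of the strand that carries the motif, with the motif in capitals.
Zfp180, chr7:24081866-24081895, minus strand: gctcaatggaACTACAATTCCcagaactct
Zfp146, chr7:30169850-30169879, plus strand: acgactttggACTACACTTCCcacaaggca
Zfp692, chr11:58307011-58307040, plus strand: actaaggctaACTACAATTCCcggcaggct
Zfp317, chr9:19621857-19621886, plus strand: ccaactagaaACTACATTTCCcataaaccc
Zfp317, chr9:19621901-19621930, plus strand: caacgtagaaACTACATTTCCcataaacca
Zfp219, chr14:52019699-52019728, plus strand: ttcacccgagACTACAAATCCcaggatgcc
Zfp28, chr7:6383163-6383192, plus strand: tccgctggggACTACACTTCCcagggggcc
A match describes letters, not binding. The median log2 fold change, KO over WT, was 0.08 in the 41 members with a match and 0.02 in the 164 without. Zfp143 itself had 36.7 and 39.0 CPM in the KO-labelled libraries and 39.8 and 38.9 CPM in the WT-labelled libraries, which overlap. An interferon-response-like motif, GAAA and GAAA with any 2 bases between them, was found in 4 member promoters (1.95%, against 3.63% of the table's genes). The amino-acid-response-like motif TGATGNAA, in the promoter of 3 members (1.46%), was found in 2.66% of those genes. Both were searched on both strands.

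The libraries held 32452155 and 38124687 counts (KO replicates 1 and 2) and 28356401 and 44016809 counts (WT replicates 3 and 8). The members took between 0.443 and 0.504% of them. Adar had 67.1 and 102 CPM in the KO-labelled libraries and 50.9 and 46.9 CPM in the WT-labelled libraries (log2 fold change 0.79, SE 0.25, edgeR adjusted p = 0.377), and a count over a whole gene does not test the loss of a part of it. In 3 of the 4 libraries the Y-linked genes contradicted the labelled sex. The KO-labelled libraries also differed from each other in them. Y-linked Ddx3y had 184 CPM in KO replicate 1 and 0.0778 CPM in KO replicate 2, against 86.0 and 86.2 CPM in the WT-labelled libraries. Eif2s3y had 106 and 0 CPM in KO replicates 1 and 2, against 72.2 and 79.6 CPM in WT. Genes of the erythroid marker list, 14 of 16 of them measured, summed to 73616 and 75597 CPM in the KO-labelled libraries, against 105847 and 70570 CPM in the WT-labelled libraries. Of these 14, 11 had log2 fold changes below 0, and their median was -0.25. Klf1, which encodes an erythroid transcription factor, had 204 and 520 CPM in the KO-labelled libraries, against 689 and 533 CPM in the WT-labelled libraries. Tal1, another erythroid factor gene, had 424 and 1052 CPM in KO, against 1210 and 980 CPM in the WT-labelled libraries. The median difference of the 14 from the WT mean was -0.41 in KO replicate 1 and -0.06 in KO replicate 2. KO replicate 1 stood apart in the 7 measured neutrophil markers of 9, whose sum was 305 CPM there and 37.3 CPM in KO replicate 2, against 41.1 and 45.3 CPM in the WT-labelled libraries. The 10 measured macrophage markers of 14 summed to 8.78 and 20.8 CPM in KO, against 66.0 and 30.8 CPM in the WT-labelled libraries. The 7 measured megakaryocyte markers of 8 summed to 181 and 111 CPM in KO, against 64.4 and 93.8 CPM in WT, and the 6 measured endothelial and stellate markers of 10 to 29.5 and 33.2 CPM in KO, against 14.9 and 13.4 CPM in WT. The 9 measured hepatoblast markers of 13 summed to 62.9 and 73.4 CPM in KO, against 132 and 53.4 CPM in WT. The part of these cell types in the values of the members was not tested, and in bulk RNA fewer cells of a type and less RNA per cell cannot be told apart.

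As a family the Zfp genes had the same median difference between KO-labelled and WT-labelled libraries as all genes. Their median log2 fold change was 0.00, beside -0.00 over all genes, and the middle 50% of members lay between -0.30 and 0.27, against -0.29 and 0.36 over all genes. Values below 0 were found in 49.4% of members, where the share over all genes was 50.0%. No member passed edgeR's quasi-likelihood test at an adjusted p below 0.05, as higher (0 members, where 0.103% of all genes were called) or as lower (0 members, where 0% were called). At an unadjusted p below 0.05 there were 14 members with higher values, 5.67% of the family beside 9.82% of all genes, and 2 with lower values, 0.81% beside 2.08%. Without KO replicate 1 these became 6 and 2 members, where 6.84% of all genes were higher and 1.45% lower. Without KO replicate 2 they became 49 and 48, beside 23.0% and 21.9% of all genes. They were 2 and 0 without WT replicate 3 (4.16% and 0.420% of all genes) and 1 and 2 without WT replicate 8 (5.38% and 1.37%). At the same unadjusted threshold limma-voom gave 8 higher and 4 lower members, beside 8.53% and 2.44% of all genes. The lower members numbered 6 with DESeq2 (3.41% of all genes) and 1 without library scaling (3.14%), and the higher ones 4 with labelled sex as a covariate (7.17%). The other tools likewise called 0 members at an adjusted p below 0.05. DESeq2 called 3.29% of all genes higher and 0.196% lower, edgeR's likelihood ratio test 3.09% and 0.168%, and limma-voom 0.0747% and 0%. No member (0) had an adjusted p below 0.05 in the authors' deposited table, where 0.0747% of all genes did, and the smallest among members was 0.384.

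Large differences were counted beside those of all genes. A log2 fold change over 1 was reached by 8 members (3.24%), where 7.37% of all genes reached it, and a value under -1 by 2 members (0.81%), where 1.39% did. The highest member was Zfp28 at 1.25, while the highest gene of the table had 8.63. In 59 members (23.9%) both KO-labelled libraries were above both WT-labelled libraries, beside 27.4% of all genes. The opposite order was found in 58 members (23.5%), beside 26.7%. These counts include the members in the table only through the KO-labelled libraries. Among the 244 members at 1 CPM or more in a library of each group, 7 had a log2 fold change over 1, 13 had higher values at an unadjusted p below 0.05, and 56 had both KO-labelled libraries above both WT-labelled libraries. The shares over all genes were not computed under this limit. They still include 176 genes below 1 CPM in both WT-labelled libraries and 51 below it in both KO-labelled libraries, so they are no background for these 3 counts.

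**Figure D1:**
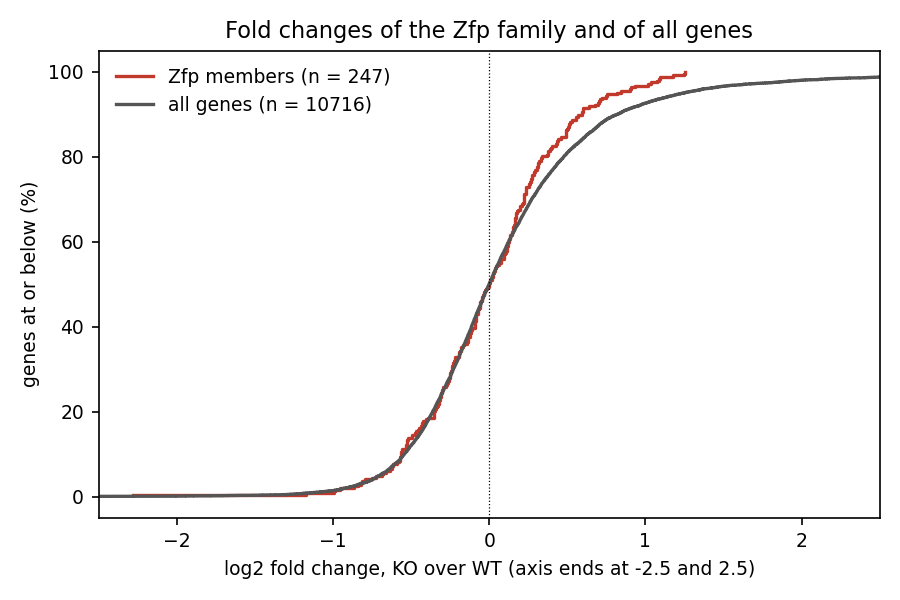
Cumulative share of genes (vertical axis, %) at or below each log2 fold change, KO over WT (horizontal axis), for the 247 Zfp members and all 10716 genes. Both curves cross 0 near 50%, and the members' curve ends at 1.25, left of the upper tail of all genes.

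Both KO-labelled libraries centred near the WT mean but differed in their spread. On the log2 CPM scale (prior count 2), the median difference of members from the mean of the WT-labelled libraries was -0.06 in KO replicate 1 and 0.02 in KO replicate 2, beside 0.00 and -0.01 over all genes. The interquartile range of these differences was 0.952 in KO replicate 1 and 0.302 in KO replicate 2, while the members' differences between the WT-labelled libraries had a range of 0.340. The first 2 ranges are of a library against a mean of 2, and the last is of a library against a library. KO replicate 1 lay farther from the WT mean than KO replicate 2 in 209 members (84.6%), and in 82.7% of all genes. A difference over 1 was found for 17 members in KO replicate 1 (background 12.0% of all genes) and for 1 in KO replicate 2 (3.49%). A difference under -1 was found for 25 members in KO replicate 1 (8.58%) and for 1 in KO replicate 2 (0.467%).

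With KO replicate 2 left out, and KO replicate 1 assumed to vary like the WT pair, edgeR called 35 members higher (14.2%, beside 17.3% of all genes) and 29 lower (11.7%, beside 15.3%). Of the 84 members with a KRAB pattern 9 were then higher and 8 lower, and of the 155 without one 26 were higher and 20 lower. Without KO replicate 1 instead, 0 members were called in either direction, where 1.29% of all genes were called higher and 0.0467% lower. Zfp39, a KRAB member chosen after its values were seen, shows the pattern. It had 8.48 CPM in KO replicate 1 and 27.5 CPM in KO replicate 2, against 30.9 and 24.5 CPM in the WT-labelled libraries. KO replicate 1 alone lay outside the range of the other libraries.

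**Figure D2:**
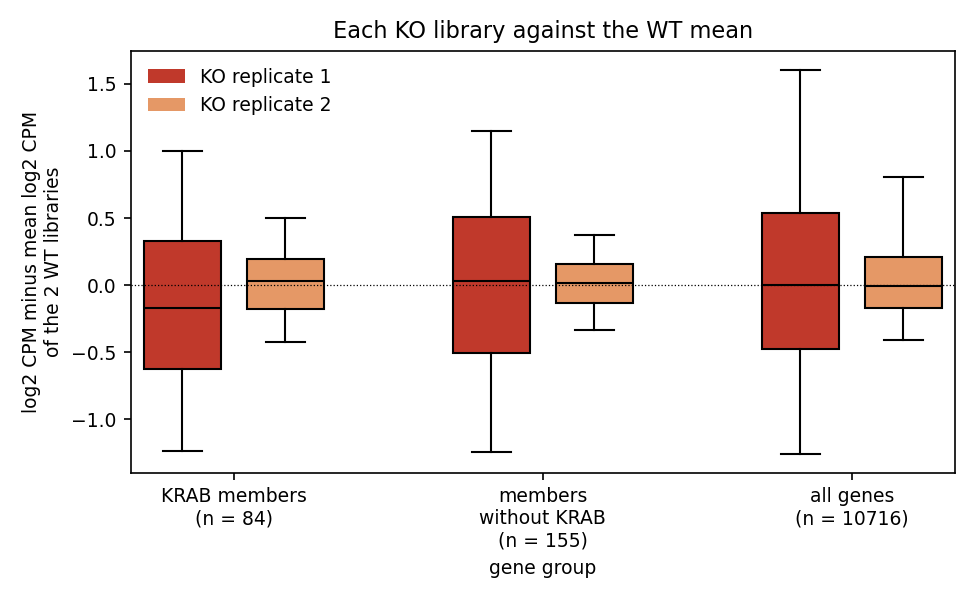
Difference of each KO library from the mean of the 2 WT libraries in log2 CPM (vertical axis) for members with a KRAB pattern, members without one and all genes. Boxes span the quartiles with the median line and whiskers reach the 5th and 95th percentiles; the boxes of KO replicate 1 are wider than those of KO replicate 2 in every group, and its KRAB median is -0.17.

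Members with a KRAB pattern were expressed at lower levels than those without. Their median level was 1.43 CPM per kilobase of transcript, against 4.04 in members without the pattern and 10.3 over all genes. Their median log2 fold change was -0.04, and that of members without the pattern was 0.04. The KRAB median was -0.17 in KO replicate 1 and 0.03 in KO replicate 2, so the sign was not shared by the KO-labelled libraries, and without KO replicate 1 the fitted KRAB median was 0.03. Outside the family, 31 genes of other names with a KRAB pattern and at least 5 finger patterns had a median log2 fold change of 0.00, with -0.19 in KO replicate 1 and -0.06 in KO replicate 2. By finger number, the median log2 fold change was 0.15 in the 6 members with no finger pattern, 0.11 in the 41 with 1 to 4, 0.10 in the 73 with 5 to 9 and -0.07 in the 119 with 10 or more. In that last group the median was -0.21 in KO replicate 1 and 0.02 in KO replicate 2.

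Members of high and low level differed in their medians. When all genes were cut into quartiles of mean level, the members' median log2 fold change was -0.07 in the lowest quartile (112 members), -0.04 in the next (77), 0.15 in the third (46) and 0.24 in the highest (12). Over all genes of those quartiles the medians were 0.11, -0.01, -0.06 and -0.01. The 0.24 of the highest quartile was a median of 0.39 in KO replicate 1 and of 0.06 in KO replicate 2, and the members of the lowest quartile had -0.20 and 0.02. Without KO replicate 1 the medians of the lowest and the highest quartile were 0.00 and 0.05. In quartiles of GC content, the 111 members with the lowest GC had a median of -0.07 against 0.02 over all genes there. The 46 members of the next quartile had 0.16 against -0.01. Transcript length gave 0.15 for the 23 members of the shortest quartile and values between -0.05 and 0.01 for the others.

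**Figure D3:**
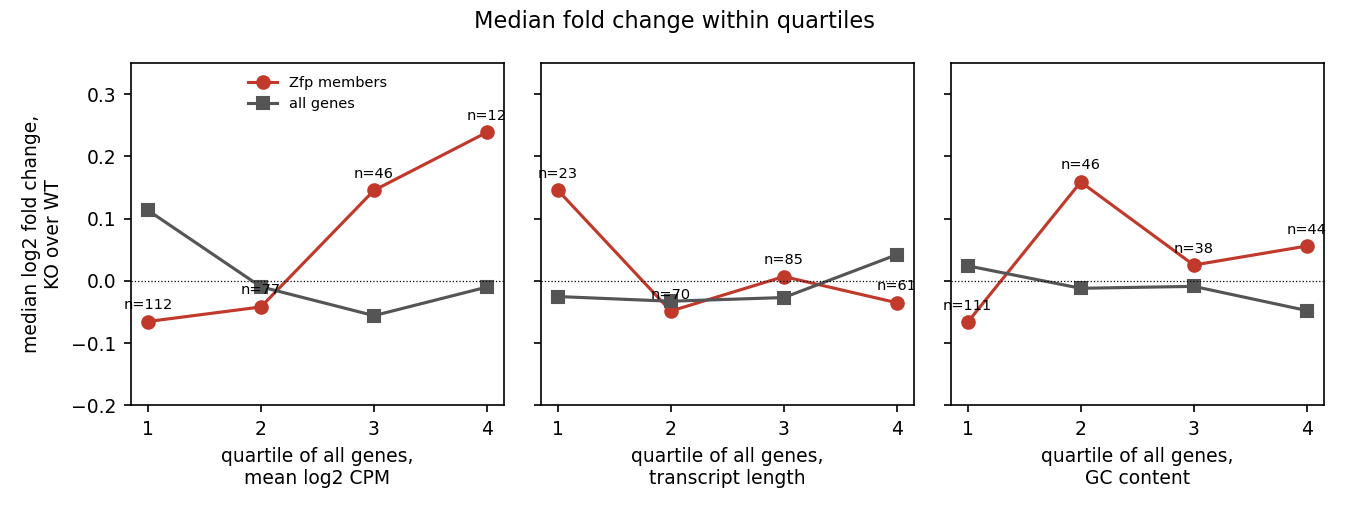
Median log2 fold change, KO over WT (vertical axis), of Zfp members and of all genes within quartiles of all genes by mean log2 CPM, transcript length and GC content (horizontal axes), with the number of members. By level the members go from -0.07 in the lowest quartile to 0.24 in the highest, while all genes stay between -0.06 and 0.11.

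The 16 members with an unadjusted p below 0.05 were read one by one. Zfp238, which encodes the BTB-domain repressor ZBTB18 (RP58), had 40.8 and 31.9 CPM in the KO-labelled libraries and 21.4 and 14.6 CPM in the WT-labelled libraries. The groups did not overlap (mean 36.3 ± 6.31 CPM in KO, 18.0 ± 4.86 CPM in WT, SD, n = 2 each). Its log2 fold change of 1.01 (SE 0.28) gave the smallest adjusted p of the family, 0.335 in edgeR. The gene lies on chromosome 1 (NCBIM37, 179374792 to 179380891). Zfp395, whose human counterpart ZNF395 was described as a factor binding a papillomavirus promoter, had 30.1 and 18.3 CPM in the KO-labelled libraries and 13.2 and 9.76 CPM in the WT-labelled libraries (log2 fold change 1.08, SE 0.32, edgeR adjusted p = 0.358). These groups did not overlap either.

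Zfp639 had 68.5 and 44.9 CPM in the KO-labelled libraries, against 30.8 and 33.5 CPM in the WT-labelled libraries (log2 fold change 0.82, SE 0.26). Zfp277, a partner of the Polycomb protein BMI1 in repression of the Ink4a/Arf locus, had 15.7 and 11.5 CPM in KO, against 7.65 and 8.51 CPM in the WT-labelled libraries (log2 fold change 0.75, SE 0.27). In both genes the lower KO library was above the higher WT library. Zfp292, which encodes a very large finger protein described in the rat as binding the growth hormone promoter, had 205 and 78.4 CPM in the KO-labelled libraries, against 58.1 and 67.2 CPM in the WT-labelled libraries. Its log2 fold change of 1.18 (SE 0.44, edgeR adjusted p = 0.419) was carried by KO replicate 1, since the difference from the WT mean was 1.71 there and 0.33 in KO replicate 2.

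KRAB members were found on both sides. Zfp459, on chromosome 13, had 5.09 and 4.54 CPM in the KO-labelled libraries and 2.54 and 2.15 CPM in the WT-labelled libraries (log2 fold change 1.04, SE 0.33, edgeR adjusted p = 0.376). The KO values lay close together and far from both WT values. Zfp28, with 14 finger patterns, had 59 and 61 counts in the KO-labelled libraries and 16 and 41 counts in the WT-labelled libraries, or 1.92 and 1.58 CPM in KO against 0.580 and 0.866 CPM in WT. It is in the table only through the KO-labelled libraries, so a difference was a condition of its presence. Zfp120, Zfp78 and Zfp369 were the other KRAB members with higher values at this threshold. Zfp120 had 15.0 and 8.81 CPM in the KO-labelled libraries, against 5.84 and 6.82 CPM in the WT-labelled libraries (log2 fold change 0.91, and 0.47 without KO replicate 1). The run member Zfp78, whose values are given with its neighbours, had 1.09, and 0.63 without KO replicate 1. Zfp369, known as an interactor of the neurotrophin receptor p75, had 29.5 and 14.2 CPM in KO, against 11.5 and 11.4 CPM in the WT-labelled libraries (0.93, and 0.32 without KO replicate 1). In each of these 3 genes KO replicate 1 was the highest library and KO replicate 2 the next.

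On the lower side, Zfp568 had 12.3 and 23.4 CPM in the KO-labelled libraries and 32.8 and 31.1 CPM in the WT-labelled libraries. ZFP568 is a KRAB protein that represses the placental promoter of Igf2 through TRIM28. Its groups did not overlap, with means of 17.8 ± 7.83 CPM in KO and 32.0 ± 1.16 CPM in WT (SD, n = 2 each) and a log2 fold change of -0.84 (SE 0.33, edgeR adjusted p = 0.419). Zfp280c, on the X chromosome, had 10.2 and 10.6 CPM in the KO-labelled libraries, against 15.0 and 16.3 CPM in the WT-labelled libraries (log2 fold change -0.59, SE 0.22). The values were close within each group. The X-linked Zfp185, which encodes a LIM-domain protein of the actin cytoskeleton and held no C2H2 finger pattern, had the lowest log2 fold change of the family, -2.28 (SE 0.97). Its 0.359 and 1.92 CPM in the KO-labelled libraries stood against 9.28 and 2.05 CPM in the WT-labelled libraries, so that WT replicate 3 was far above the rest.

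**Figure D4:**
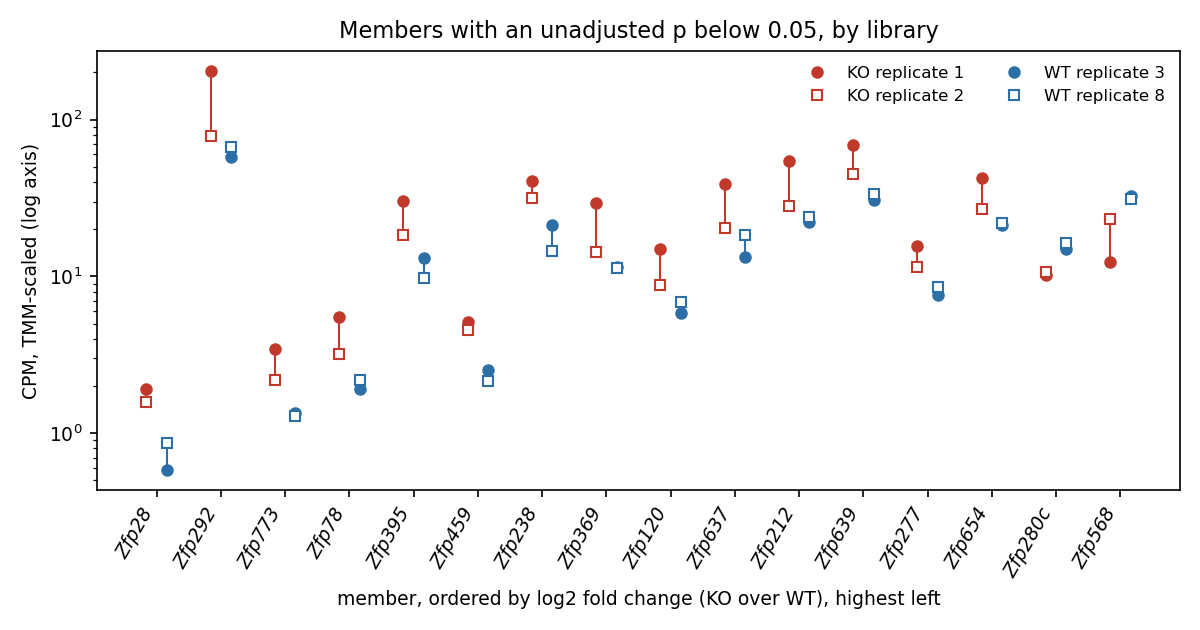
CPM (vertical axis, log scale) of the 16 members with an unadjusted p below 0.05 in each library, KO points left of WT points, ordered by log2 fold change from Zfp28 (1.25) to Zfp568 (-0.84). In each member the KO and WT points do not overlap, which choosing members by a low p in these same libraries favours. Over all genes, 27.4% are higher and 26.7% lower without overlap. In 11 of the 14 higher members the KO points are farther apart than the WT points.

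The other members at this threshold were Zfp773, Zfp637, Zfp212 and Zfp654, all with higher values. Zfp773 had 3.46 and 2.18 CPM in the KO-labelled libraries, against 1.34 and 1.29 CPM in the WT-labelled libraries (log2 fold change 1.10, and 0.73 without KO replicate 1). Zfp637 had 38.9 and 20.3 CPM in KO, against 13.3 and 18.4 CPM in the WT-labelled libraries (0.90, and 0.35 without KO replicate 1). The log2 fold change of Zfp212 was 0.84, and 0.28 without KO replicate 1, and that of Zfp654 was 0.68, and 0.31 without KO replicate 1. KO replicate 1 was the highest library in all 14 members with higher values at this threshold. Zfp212 and Zfp654 fall outside the naming rule and were chosen after their values were seen. Among members with lower values and groups that did not overlap, without an unadjusted p below 0.05, Zfp324 had 1.21 and 3.81 CPM in the KO-labelled libraries and 5.84 and 5.53 CPM in the WT-labelled libraries (log2 fold change -1.17, SE 0.55). Zfp341, whose human counterpart ZNF341 activates transcription of STAT3, had 7.73 and 19.8 CPM in KO, against 33.3 and 21.4 CPM in the WT-labelled libraries (log2 fold change -0.99, SE 0.48). In both, KO replicate 1 was the lowest library. Zfp239 (-0.99), Zfp882 (-0.96), Zfp41 (-0.82), Zfp599 (-0.75), Zfp646 (-0.69), Zfp518b (-0.68) and Zfp770 (-0.57) had lower values. Zfp608, with higher values and no unadjusted p below 0.05, had 5.45 and 1.87 CPM in the KO-labelled libraries, against 1.45 and 1.61 CPM in the WT-labelled libraries. Its log2 fold change was 1.25, and 0.28 without KO replicate 1.

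Zfp207, which encodes the spindle protein BuGZ that loads BUB3 on kinetochores, had the highest level of the family, 191 CPM per kilobase of transcript beside a family median of 2.42. It had 502 and 236 CPM in the KO-labelled libraries and 216 and 236 CPM in the WT-labelled libraries. KO replicate 1 was high, and KO replicate 2 lay within the range of the WT-labelled libraries (log2 fold change 0.71, SE 0.37). Next per kilobase came Zfp871 at 41.2 and Zfp445 at 36.8 CPM per kilobase. Zfp871, a KRAB member with 15 finger patterns, had 309 and 184 CPM in the KO-labelled libraries, against 178 and 173 CPM in the WT-labelled libraries (log2 fold change 0.49, SE 0.28). ZFP445 keeps methylation marks at imprinted loci, and its gene had 124 and 111 CPM in KO, against 101 and 99.8 CPM in the WT-labelled libraries (log2 fold change 0.22, SE 0.18). Both genes had non-overlapping groups and no call.

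Zfp91, which encodes a ubiquitin ligase of the kinase NIK, had 88.3 and 132 CPM in the KO-labelled libraries and 174 and 136 CPM in the WT-labelled libraries (log2 fold change -0.49, SE 0.26). The groups did not overlap, although KO replicate 2 was close to the lower WT library. The RNA-binding Zfp106 had 212 and 176 CPM in KO, against 158 and 187 CPM in the WT-labelled libraries (0.17, SE 0.21), which overlap. The other members of highest count, Zfp367 (-0.03), Zfp592 (0.27), Zfp800 (0.26) and Zfp217 (0.10), had log2 fold changes within 0.27 of 0.

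Members on a list of general transcription factors, 19 in number, had a median log2 fold change of 0.04 and a range from -0.57 (Zfp161) to 1.25 (Zfp608). At an unadjusted p below 0.05 there were 0 of 19, beside 9.82% of all genes with higher and 2.08% with lower values. Zfp148, a GC-box binding factor that works with GATA1 in blood cells, averaged 42.2 ± 2.49 CPM in the KO-labelled libraries and 44.4 ± 0.586 CPM in the WT-labelled libraries (SD, n = 2 each), with a log2 fold change of -0.07 (SE 0.18). Zfp410, known for its activation of the NuRD gene Chd4, had 81.0 and 63.5 CPM in KO, against 60.8 and 61.8 CPM in the WT-labelled libraries (0.24, SE 0.20). Of 4 members on a list for silencing and imprinting, Zfp637 had higher and Zfp568 lower values at that threshold, beside the same 9.82% and 2.08%. The role of Zfp637 was taken from the list and not checked. Zfp445 and Zfp809 (-0.45), which silences retroviruses in embryonic cells, did not reach it.

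A list of members for roles in RNA, the ribosome or signalling also held Zfp395 and Zfp277, described above by roles in transcription. Its 17 members had a median of 0.15. At an unadjusted p below 0.05, 2 were higher (Zfp395 and Zfp277, 11.8% beside 9.82% of all genes) and 0 lower (beside 2.08%). The median difference of the 17 from the WT mean was 0.21 in KO replicate 1 and 0.03 in KO replicate 2. Zfp598, the ubiquitin ligase of collided ribosomes, had 97.3 and 64.6 CPM in the KO-labelled libraries, against 69.2 and 76.6 CPM in the WT-labelled libraries (log2 fold change 0.15, SE 0.25). The values of KO replicate 1 and KO replicate 2 lay on opposite sides of the WT range. Zfp346, which encodes a protein that binds double-stranded RNA, had 36.2 and 42.6 CPM in KO, against 34.2 and 33.4 CPM in the WT-labelled libraries (0.22, SE 0.20). Zfp451, a SUMO ligase gene, showed 0.55 (SE 0.30) on the log2 scale, and Zfp622, a factor of the large ribosomal subunit, 0.40 (SE 0.28).

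The genome positions of 240 members were known. Chromosome 7 held 62 of them (25.8%), against 7.60% of all genes, and chromosomes 17 and 13 held 27 and 24. Their median log2 fold changes were -0.05 on chromosome 7, -0.08 on chromosome 17 and -0.00 on chromosome 13. Runs of at least 4 members with no gap over 500000 bases numbered 12 and took in 93 members. Neighbours in a run share their region and often their ancestry, and are not independent measurements.

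The run with the highest median, 0.55, was on chromosome 7 (NCBIM37, 6083091 to 6347755) and held Zfp787, Zfp444, Zfp667, Zfp583, Zfp78 and Zfp28. In 5 of the 6 both KO-labelled libraries were above both WT-labelled libraries, an order found in 27.4% of all genes. Zfp28, among these 5, is in the table only through the KO-labelled libraries, and without it the run's median was 0.39. Zfp583 had 2.58 and 1.84 CPM in the KO-labelled libraries, against 1.31 and 1.39 CPM in the WT-labelled libraries (log2 fold change 0.70, SE 0.38). Its neighbour Zfp78 had 5.55 and 3.19 CPM in KO, against 1.92 and 2.18 CPM in the WT-labelled libraries (1.09, SE 0.41). Zfp787 (0.39) and Zfp444 (0.27) had smaller values of the same sign. Zfp667, in the middle of the run, went the other way, with 9.43 and 19.5 CPM in the KO-labelled libraries and 22.4 and 20.6 CPM in the WT-labelled libraries (-0.57, SE 0.37). The run's median difference from the WT mean was 0.69 in KO replicate 1 and 0.36 in KO replicate 2, and 0 of the 6 members were called. Over all alternative fits and with each library left out, the run's median lay between 0.37 and 0.70, and between 0.29 and 0.47 without Zfp28. The run was picked as the highest of 12 in these same libraries. The order of its members also makes a change of sign unlikely, so these ranges do not test it.

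On chromosome 6 (47785660 to 48036592), Zfp398, Zfp282, Zfp212, Zfp783, Zfp777 and Zfp746 all had log2 fold changes above 0, from 0.06 to 0.84. In 3 of the 6 both KO-labelled libraries were above both WT-labelled libraries, an order found in 27.4% of all genes. The sign was shared by 5 of the 6 without library scaling and by 4 without WT replicate 3. Zfp212 had 54.7 and 28.1 CPM in the KO-labelled libraries, against 22.1 and 24.0 CPM in the WT-labelled libraries. The 15 members of the chromosome 13 run had a median of 0.08 and the 11 of the run that holds Zfp568 had -0.05, with Zfp568 itself the lowest at -0.84 and Zfp146 the highest at 0.33. In the 4 members of the fourth run of chromosome 7 (Zfp60, Zfp59, Zfp607 and Zfp780b) all values were below 0, from -0.53 to -0.05. Only 1 of those 4 had both KO-labelled libraries below both WT-labelled libraries, an order found in 26.7% of all genes. Zfp780b changed sign without KO replicate 1, to 0.03, and Zfp607 without WT replicate 8, to 0.22. Zfp780b, Zfp607 and Zfp59 were among the members sharing more than 10% of their 50-base stretches with other genes, so their values are uncertain.

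**Figure D5:**
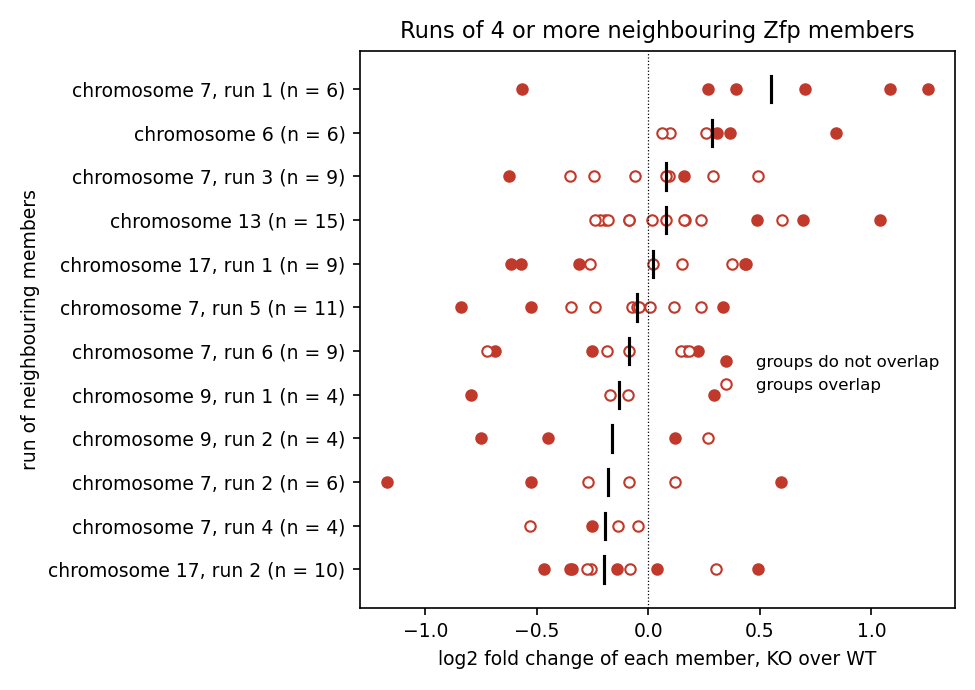
Log2 fold change, KO over WT (horizontal axis), of each member in the 12 runs of neighbouring Zfp genes (rows, ordered by median, with the number of members). Filled points have groups that do not overlap, open points have groups that do, and bars mark medians, which go from 0.55 in the first run of chromosome 7 to -0.20 in the second run of chromosome 17.

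Genes of the silencing machinery, including those through which KRAB members act, and other zinc finger families were counted the same way. The list of silencing genes covers TRIM28, SETDB1, HP1, NuRD and H3K9 methylation. It is wider than these, and also holds for example Dnmt1, Uhrf1, Ctbp1, Smarcad1, Atrx, Daxx and Pphln1. Of its 36 measured genes, 26 had values below 0 and the median log2 fold change was -0.18, beside -0.00 over all genes. Their median difference from the WT mean was -0.27 in KO replicate 1 and -0.10 in KO replicate 2, and the fitted median lay between -0.28 and -0.11 in every alternative run. None was called by edgeR, and at an unadjusted p below 0.05 there were 2 with higher values (5.56%, beside 9.82% of all genes) and 0 with lower values (beside 2.08%). Both KO-labelled libraries were below both WT-labelled libraries in 16 of the 36 (44.4%, beside 26.7% of all genes) and above them in 6 (16.7%, beside 27.4%). The 2 with higher values were Mta1, a NuRD subunit gene (0.64, SE 0.24), and Gatad2b, another (1.15, SE 0.46). Gatad2b had 84.8 and 30.5 CPM in the KO-labelled libraries, against 26.3 and 25.8 CPM in the WT-labelled libraries, so KO replicate 1 carried its value. Pphln1, of the HUSH silencing complex, followed with 24.0 and 38.1 CPM in KO, against 47.0 and 50.4 CPM in the WT-labelled libraries (-0.65, SE 0.27, edgeR adjusted p = 0.426).

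Trim28 had 150 and 155 CPM in the KO-labelled libraries, against 171 and 182 CPM in the WT-labelled libraries (log2 fold change -0.21, SE 0.18). Its groups did not overlap. Setdb1 had 119 and 93.3 CPM in KO, against 79.4 and 107 CPM in the WT-labelled libraries (0.19, SE 0.24), and its groups overlapped. Among other finger families the median log2 fold change was 0.03 in 31 Zbtb genes, 0.05 in 11 Zkscan and Zscan genes, -0.21 in 11 Klf genes and 0.21 in 17 Zc3h genes. None of these genes was called in edgeR's test. At an unadjusted p below 0.05 there were 3 Zbtb (9.68%), 3 Klf (27.3%) and 1 Zc3h (5.88%) genes with higher values and 0 with lower ones, beside 9.82% and 2.08% of all genes. The median difference of the Klf genes from the WT mean was -0.00 in KO replicate 1 and 0.09 in KO replicate 2, unlike their fitted median.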

How the data were processed

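Raw counts per gene, deposited by the authors in 1 table with 2 libraries for each group, were the measurement. Per the submitters' processing notes the tools were HTSeq, edgeR, SAMtools 0.1.19, Bowtie2 2.1.0.0 and TopHat2 2.0.8, among others, with builds mm9 and NCBIM37, without their roles, and strand and shared reads in counting are not stated. The deposited p-values of the authors' own comparison were used only where the authors' deposited table is named. No column was left unmapped to a library.

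Groups were compared on the whole table with edgeR 4.0.16 in R 4.3.3 (filterByExpr, which removed 0 genes, TMM scaling, quasi-likelihood F test, two-sided, robust=TRUE, Benjamini-Hochberg over 10716 genes, adjusted p below 0.05). The common biological coefficient of variation was 25.6% with 2 residual degrees of freedom. The fit was also run on simulated data, whose counts varied alike in every library and less than these counts. That run therefore does not test how the fit handles the spread found here. CPM values are TMM-scaled, SE is that of the log2 fold change, and quartiles are over all genes. Alternatives used DESeq2 1.42.0, limma 3.58.1, edgeR's likelihood ratio test, other scalings and filters, labelled sex, and each library left out.

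The members and lists were chosen with earlier results of these data known. Named members were those called (0), up to 10 in each direction by size of the log2 fold change among members whose groups do not overlap and whose mean log2 CPM is 1 or more, the 10 with the highest CPM, the 5 with the smallest p in each direction, and members of the role lists. Finger patterns (cysteine, 2 to 4 residues, cysteine, 12 residues, histidine, 3 to 5 residues, histidine) and a KRAB box pattern were read from the longest GENCODE coding sequence of each gene on NCBIM37, a source chosen after the files were seen. Of 247 members, 234 had an Ensembl ID in the table and 240 were found in the annotation. Promoters are from RefSeq on GRCm38.p6, and the motifs were chosen by hand.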

Additional observations from a re-analysis of the deposited data

How the results depend on the processing

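No paired analysis was possible because the groups share no replicate number (1 and 2 against 3 and 8). Leaving out each library in turn gave between 0 and 35 members called higher and between 0 and 29 called lower, with every call in the fit without KO replicate 2, where KO replicate 1 is assumed to vary like the WT pair. The other alternatives gave 0 in each direction. At an unadjusted p below 0.05, the 14 higher members (9.82% of all genes) became between 1 and 49 with a library left out (between 4.16% and 23.0% of all genes), 8 with limma-voom (8.53%) and 4 with labelled sex as a covariate (7.17%), a label that the Y-linked counts contradict in 3 libraries. The 2 lower members (2.08%) became between 0 and 48 with a library left out (between 0.420% and 21.9%), 1 without library scaling (3.14%), 6 with DESeq2 (3.41%) and 4 with limma-voom (2.44%). The causes of these changes were not tested, other than that each smaller fit has 1 library fewer. The median of the family minus that of all genes was 0.002, and lay between -0.076 (without KO replicate 2) and 0.026 (without KO replicate 1) with a library left out. The 24 members named for the size of their log2 fold change or for a small p all had groups that do not overlap. None of their values changed sign under any alternative, but that order makes a change unlikely when a library is left out. Members named for level or role did change sign in places. Without KO replicate 1, Zfp598 went from 0.15 to -0.17 and Zfp800 from 0.26 to -0.19. Without KO replicate 2, Zfp217 went from 0.10 to -0.24. The median of all genes was -0.07 without library scaling and that of the members -0.06. With 2 libraries a group, no member could be told from 0 at an adjusted p below 0.05 in the main edgeR fit. This holds for the middle 50% (log2 fold changes from -0.30 to 0.27) and for the extremes, -2.28 and 1.25. Low counts such as the 16 of Zfp28 in WT replicate 3 add counting error.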
